A study of Danio rerio with 40 samples.

Results

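The 10 genes described here carry iron into cells, move it out of them, or sense it: the transferrin gene tfa, the transferrin receptor genes tfr1a, tfr1b and tfr2, the reductase gene steap3, the importer gene slc11a2, the exporter gene slc40a1, the ferroxidase gene hephl1a, and the genes of the iron regulatory proteins, aco1 and ireb2. They were chosen by symbol, with earlier results of these data known, from the 32057 genes of the count table, and each symbol matched 1 Ensembl gene. All 10 passed the filter on low counts and were among the 19668 genes tested. Genes of ferritin and of heme breakdown were not included.

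Iron travels in plasma bound to transferrin and enters cells when transferrin receptors are taken up into endosomes, where a reductase turns ferric into ferrous iron and an importer carries it into the cytosol. It leaves through ferroportin, the product of slc40a1, helped by copper ferroxidases that oxidise it outside the cell. In mammals, iron regulatory proteins bind hairpins in the transcripts of some iron genes when iron is scarce. This binding stabilises the mRNA of the transferrin receptor and blocks translation of ferritin and ferroportin. In zebrafish, tfr1a is known from mutants with pale red cells, and tfr1b serves other tissues.

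RNA from whole brains of 6-month-old zebrafish was counted in 40 fish, 10 in each of 4 groups. Fish carried 1 or 2 copies of the frameshift allele A603fs of naglu, a gene for an enzyme that breaks down heparan sulfate in lysosomes. The heterozygous fish (naglu A603fs/+) served as unaffected controls, so the controls carry the allele too, and their homozygous siblings (naglu A603fs/A603fs) model the lysosomal storage disease mucopolysaccharidosis type IIIB. Each fish had been injected intraperitoneally 7 days before sampling, with either 10 µg ferric citrate in 0.85% saline ("iron") or saline alone ("saline"). Females were 2 of 10 among heterozygous fish given saline, 5 of 10 among heterozygous fish given iron, 7 of 10 among homozygous fish given saline and 5 of 10 among homozygous fish given iron.

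Each library held between 11800000 and 38500000 counts (median 26900000). Levels are given as CPM, counts scaled to the same library total, and since no gene lengths were used, levels of different genes are not compared. Neuron markers summed to 7260 to 11800 CPM in each brain. Liver markers summed to 0.385 to 2.24 CPM and 0 of 8 passed the filter, so the tissue check found almost no liver RNA. Markers of photoreceptors, pineal and lens were uneven between brains, with sums from 2.89 to 162 CPM and a median of 4.59. In whole tissue, fewer cells of a type and less RNA per cell cannot be told apart. In earlier results of these data 2 libraries with heterozygous labels, saline replicate 5 and iron replicate 5, lay on the homozygous side of the genotype difference, and both had the lowest oligodendrocyte marker sum of their group, 11700 and 13600 CPM. Genotype results are therefore also given without them, although leaving out libraries chosen in this way can by itself widen a genotype difference.

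Between genotypes, the ferroxidase gene hephl1a of the exit route was higher in homozygous brains, by 1.28-fold after saline. The exporter gene slc40a1 had an averaged fold of 1.19, which did not pass by edgeR (adjusted p = 0.066) and passed by DESeq2 (adjusted p = 0.040). Between ferric citrate and saline, 0 of the 10 genes passed the test in either genotype. Apart from genotype and treatment, 1 of the 10 genes, aco1, was lower in fish with a number above 40 than in the others. Of all genes, 21.4% were called in that comparison, in either direction. Levels of the 2 tfr1 genes varied together from brain to brain.

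**Figure D1:**
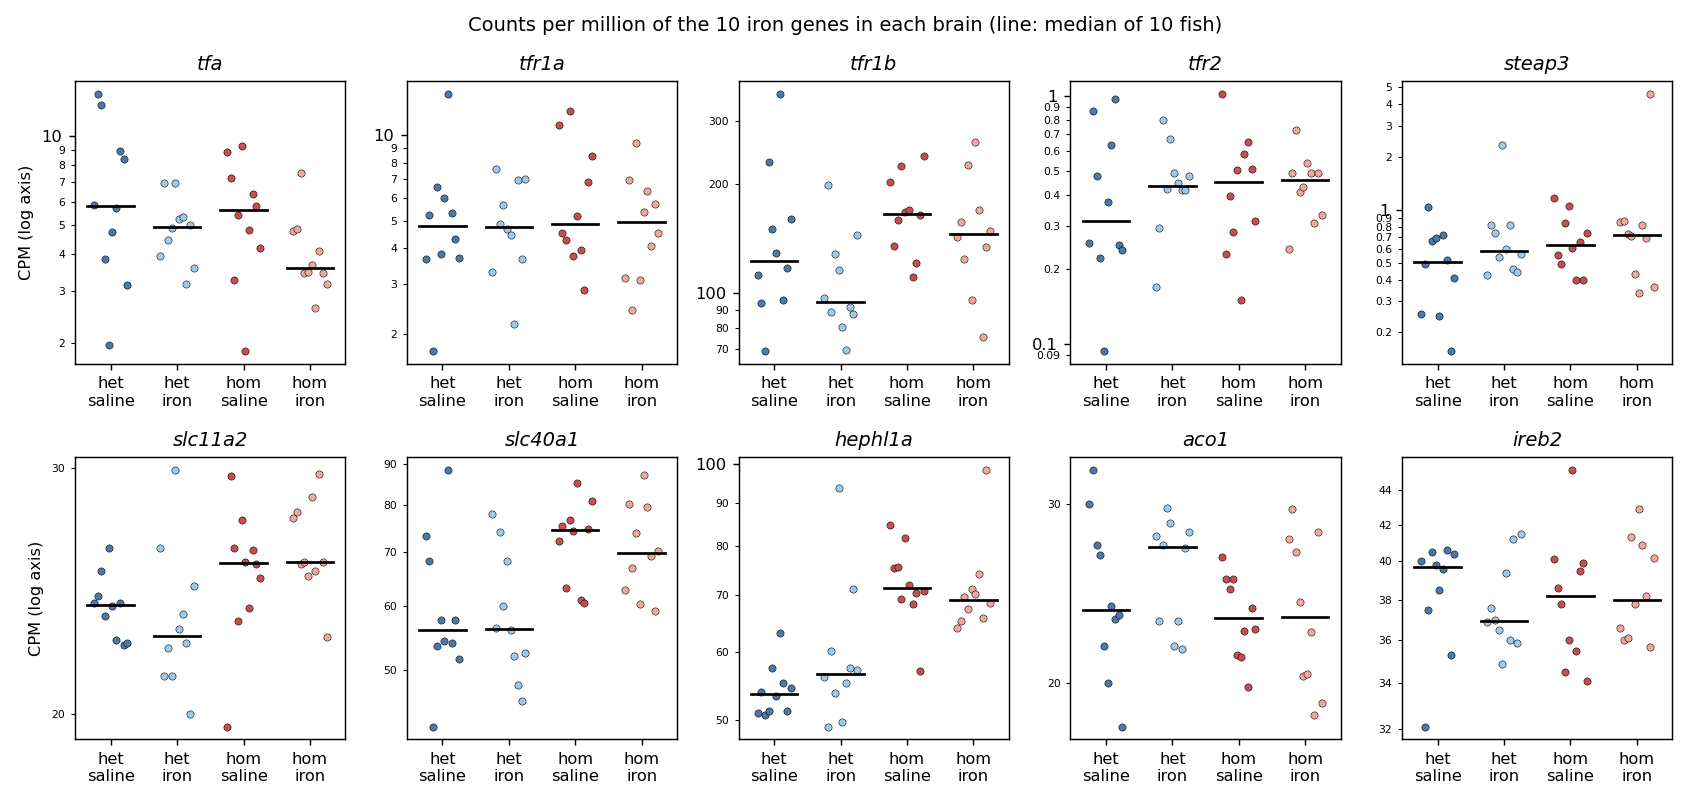
CPM (log axis) of the 10 iron genes in each of 40 brains, by group (het, heterozygous; hom, homozygous), with 1 point per fish and a line at the median of 10 fish. For hephl1a the homozygous saline fish lie at 57.0 to 84.6 CPM and the heterozygous saline fish at 50.7 to 63.2 CPM.

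The comparison of homozygous with heterozygous fish asks how loss of naglu bears on iron genes in the brain. After saline, 1 of 10 genes passed, hephl1a, which encodes a membrane ferroxidase of the hephaestin family. Of all genes tested 1.25% were called in this comparison. At an unadjusted p under 0.05 there were 2 of 10, hephl1a and slc40a1, beside 15.3% of all genes. In heterozygous saline fish hephl1a lay at 50.7 to 63.2 CPM with a median of 53.6, and in homozygous saline fish at 57.0 to 84.6 CPM with a median of 71.4. Every homozygous fish lay above the heterozygous median, and the groups overlapped through homozygous saline 9 at 57.0 CPM and the heterozygous libraries 5 and 7 at 57.6 and 63.2 CPM. The log2 fold change was 0.36 (SE 0.09, 95% interval 0.18 to 0.54, n = 10 per group, edgeR adjusted p = 0.033 by the Benjamini-Hochberg method). Sex was unevenly spread over these groups. Among males hephl1a lay at 50.7 to 57.6 CPM in 8 heterozygous saline fish and at 57.0 to 70.8 CPM in 3 homozygous saline fish, and among females at 55.3 and 63.2 CPM in 2 heterozygous fish and at 68.4 to 84.6 CPM in 7 homozygous fish.

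After iron, 0 of 10 genes passed by edgeR, by DESeq2 and by limma voom, where 0.137% of all genes tested were called by edgeR. At an unadjusted p under 0.05 there were 4 of the 10, beside 8.32% of all genes. In heterozygous iron fish hephl1a lay at 49.1 to 93.6 CPM with a median of 56.7, and in homozygous iron fish at 64.1 to 98.4 CPM with a median of 69.1. Again every homozygous fish lay above the heterozygous median, and the overlap came from heterozygous iron 5 at 93.6 CPM and heterozygous iron 9 at 71.3 CPM. The log2 fold change was 0.24 (SE 0.09, edgeR adjusted p = 0.39). Without the libraries heterozygous saline 5 and heterozygous iron 5 it was 0.35 (SE 0.08, adjusted p = 0.016), and after saline it was then 0.40 (SE 0.08, adjusted p = 0.0016). As they were chosen by their side of the genotype difference, leaving them out can by itself widen it.

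Averaged over both treatments, 4.31% of all genes passed and 1 of the 10 iron genes did, again hephl1a, with a log2 fold change of 0.30 (SE 0.06, 95% interval 0.18 to 0.42, adjusted p = 0.0027). At an unadjusted p under 0.05 there were 4 of 10, hephl1a, slc40a1, tfr1b and slc11a2, beside 19.7% of all genes. The hephl1a difference kept this call with each of the 40 libraries left out in turn, at log2 fold changes from 0.26 to 0.37. The call after saline was lost in 7 of these 40 fits, without heterozygous saline 1, 4, 8 or 9 or homozygous saline 2, 4 or 10, with adjusted p up to 0.087 and log2 fold changes from 0.34 to 0.36. Among males alone the averaged value was 0.40 (SE 0.08, adjusted p = 0.027) and among females alone 0.19 (SE 0.12, adjusted p = 0.73). The difference between the sexes was not tested.

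Some markers of cell types also differed between genotypes, beside 4.31% of all genes called in the averaged comparison. Oligodendrocyte markers summed to medians of 23000 and 20400 CPM in heterozygous saline and iron fish and of 14400 and 13300 CPM in homozygous saline and iron fish, and 8 of 8 were lower in the averaged comparison. The ranges of these sums were 11700 to 33200, 13600 to 26200, 9990 to 21500 and 8940 to 19700 CPM. Of 8 microglia and macrophage markers 1 was higher, and their sums ran from 344 to 1310, 636 to 1230, 851 to 1810 and 624 to 1260 CPM. The sum of 344 CPM was that of heterozygous saline 10. With the microglia sum as a term, the averaged log2 fold change of hephl1a was 0.26 (SE 0.06, adjusted p = 0.013), and with the oligodendrocyte sum it was 0.22 (SE 0.08, adjusted p = 0.092). After saline the same terms gave 0.29 (SE 0.09, adjusted p = 0.12) and 0.28 (SE 0.10, adjusted p = 0.11). These terms were chosen after seeing the data. The oligodendrocyte sum itself differed between genotypes, so a fit with it cannot separate genotype from cell makeup. After removal of group, sex, home tank and fish number above 40, hephl1a had an r of 0.44 with the microglia and macrophage sum. It was -0.35 with the neuron sum and -0.24 with the oligodendrocyte sum.

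The exporter gene slc40a1 encodes ferroportin, the iron exporter of vertebrate cells. It lay at 42.6 to 88.5 CPM with a median of 56.0 in heterozygous saline fish and at 60.5 to 85.2 CPM with a median of 74.6 in homozygous saline fish. After iron it lay at 45.8 to 78.1 CPM with a median of 56.2 in heterozygous fish and at 59.1 to 87.2 CPM with a median of 69.8 in homozygous fish. In both treatments 10 of 10 homozygous fish lay above the median of the heterozygous fish, but the groups overlapped, mostly through heterozygous fish with high values such as heterozygous saline 7 at 88.5 CPM. These counts do not allow for sex: after saline 8 heterozygous fish were male and 7 homozygous fish were female.

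The log2 fold change of slc40a1 was 0.24 (SE 0.12, edgeR adjusted p = 0.33) after saline, 0.27 (SE 0.12, adjusted p = 0.51) after iron and 0.25 (SE 0.08, adjusted p = 0.066) on average. The averaged difference did not pass, and it passed when single libraries were left out in 6 of 40 cases, among them heterozygous saline 7 (0.30, SE 0.08, adjusted p = 0.018). It also passed with DESeq2 (0.26, adjusted p = 0.040), without sex and tank terms (0.27, SE 0.07, adjusted p = 0.013) and without the libraries heterozygous saline 5 and heterozygous iron 5 (0.28, SE 0.09, adjusted p = 0.043). Those libraries were chosen by their side of the genotype difference, so the last of these fits can gain a call by that choice alone. In the full fit by edgeR the averaged difference stayed above the threshold. With 1 surrogate variable the averaged difference was 0.22 (SE 0.09, adjusted p = 0.19). Within the 20 fish whose number in the sample titles is up to 40 the averaged value of slc40a1 was 0.17 (SE 0.11, adjusted p = 0.56), and after iron it was -0.01 (SE 0.18). Within the 20 fish above 40 these values were 0.48 (SE 0.14, adjusted p = 0.34) and 0.69 (SE 0.20, adjusted p = 0.68). Among males the averaged value was 0.38 (SE 0.08, adjusted p = 0.034). After saline 8 heterozygous males lay at 42.6 to 73.3 CPM and 3 homozygous males at 74.8 to 80.9 CPM, without overlap. How many of all genes separate these few males in this way was not counted. In the fit of males alone this saline difference of slc40a1 did not pass, at 0.35 with an adjusted p of 0.82 (SE 0.13). After iron 5 heterozygous males lay at 48.0 to 60.1 CPM and 5 homozygous males at 59.1 to 80.2 CPM. The male difference under iron, 0.42, did not pass either, with an adjusted p of 0.27 (SE 0.11). Among females the averaged value was 0.13 (SE 0.16, adjusted p = 0.88), and the difference between the sexes was not tested. The female ranges overlapped. After saline 2 heterozygous females lay at 54.1 and 88.5 CPM and 7 homozygous females at 60.5 to 85.2 CPM. With iron, 5 heterozygous females lay at 45.8 to 78.1 CPM (median 68.2) and 5 homozygous females at 60.3 to 87.2 CPM (median 66.8).

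On the uptake side, tfr1b, the transferrin receptor gene used by many tissues, varied widely between fish, with a coefficient of variation of 41.2% over the 40 brains, beside 7.0% for ireb2, the lowest of the 10, and 94.5% for steap3, the highest. It was also higher for tfr1a (48.1%), tfr2 (47.7%) and tfa (48.3%), and steap3 and tfr2 rest on few counts. Levels of tfr1b lay at 69.2 to 356 CPM with a median of 123 in heterozygous saline fish and at 111 to 240 CPM with a median of 166 in homozygous saline fish. After iron it lay at 69.4 to 199 CPM with a median of 94.3 in heterozygous fish and at 75.7 to 262 CPM with a median of 146 in homozygous fish. Medians were higher in homozygous fish under both treatments, while all groups overlapped and the highest value of all was in heterozygous saline 7.

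The log2 fold change of tfr1b between genotypes was 0.36 (SE 0.25, adjusted p = 0.50) after saline, 0.62 (SE 0.26, 95% interval 0.11 to 1.14, adjusted p = 0.48) after iron and 0.49 (SE 0.18, 95% interval 0.13 to 0.86, edgeR adjusted p = 0.11) on average. Without heterozygous saline 7 the averaged value was 0.60 (SE 0.15) and passed, with an adjusted p of 0.019. Of the 40 fits with a library left out in turn, only this 1 passed. Under 16 other settings the averaged value ran from 0.05 to 0.81, and 0 passed. Under 17 other settings the value after saline ran from -0.41 to 0.87. With the summed red cell markers as a term, chosen after seeing the data, the averaged value was 0.47 (SE 0.15, adjusted p = 0.071). In RefSeq's gene table for the assembly GRCz12tu, tfr1b lies on chromosome 24, the chromosome of naglu, and the other 9 genes lie elsewhere.

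The importer gene slc11a2, whose product carries ferrous iron across membranes, varied little. It lay at 22.4 to 26.3 CPM with a median of 23.9 in heterozygous saline fish and at 19.6 to 29.6 CPM with a median of 25.7 in homozygous saline fish. After iron it lay at 20.0 to 29.9 CPM with a median of 22.8 in heterozygous fish and at 22.7 to 29.7 CPM with a median of 25.7 in homozygous fish. All groups overlapped, and 9 of 10 homozygous iron fish lay above the median of the heterozygous iron fish. The averaged genotype difference was 0.11 (SE 0.05, 95% interval 0.01 to 0.20, adjusted p = 0.20) on the log2 scale. Without heterozygous saline 5 and heterozygous iron 5 it was 0.16 (SE 0.05) with an adjusted p of 0.031. Since these libraries were chosen by their side of the genotype difference, leaving them out can by itself widen it.

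The remaining genes of uptake showed wide intervals. The tfr1a gene, which in zebrafish supplies developing red cells, lay at 1.74 to 14.0 CPM in heterozygous saline fish and at 2.86 to 12.2 CPM in homozygous saline fish, with medians of 4.77 and 4.86. These groups overlapped over most of their range, and the averaged genotype difference was 0.28 (SE 0.21, 95% interval -0.15 to 0.71). Transferrin itself, tfa, had medians of 5.79 CPM in heterozygous saline fish and 5.63 CPM in homozygous saline fish, and 4.94 and 3.58 CPM after iron. Its averaged genotype difference was -0.32 (SE 0.21, 95% interval -0.73 to 0.10). In mammals transferrin in plasma comes mainly from liver, whose markers were near 0 in these brains.

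The lowest counts were those of tfr2, whose product takes part in iron sensing by the liver in mammals, and of steap3, which encodes an endosomal iron reductase in mice. Counts of tfr2 ran from 2 to 28 and those of steap3 from 3 to 159 in single libraries. The averaged genotype difference was -0.10 (SE 0.22, 95% interval -0.55 to 0.34) for tfr2 and 0.44 (SE 0.27, 95% interval -0.12 to 0.99) for steap3.

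The iron regulatory proteins are encoded by aco1 and ireb2. The product of aco1 switches between cytosolic aconitase and an RNA-binding protein, and that of ireb2 is controlled by its breakdown when iron is plentiful. Levels of ireb2 had medians of 39.7 and 36.9 CPM in heterozygous fish given saline and iron and of 38.2 and 38 CPM in homozygous fish, and no library lay outside 32.1 to 45.2 CPM. The averaged genotype difference of ireb2 was 0.02 (SE 0.04, 95% interval -0.06 to 0.10). Levels of aco1 had medians of 23.6, 27.2, 23.2 and 23.2 CPM in the same order, and its averaged genotype difference was -0.09 (SE 0.07, 95% interval -0.24 to 0.06).

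**Figure D2:**
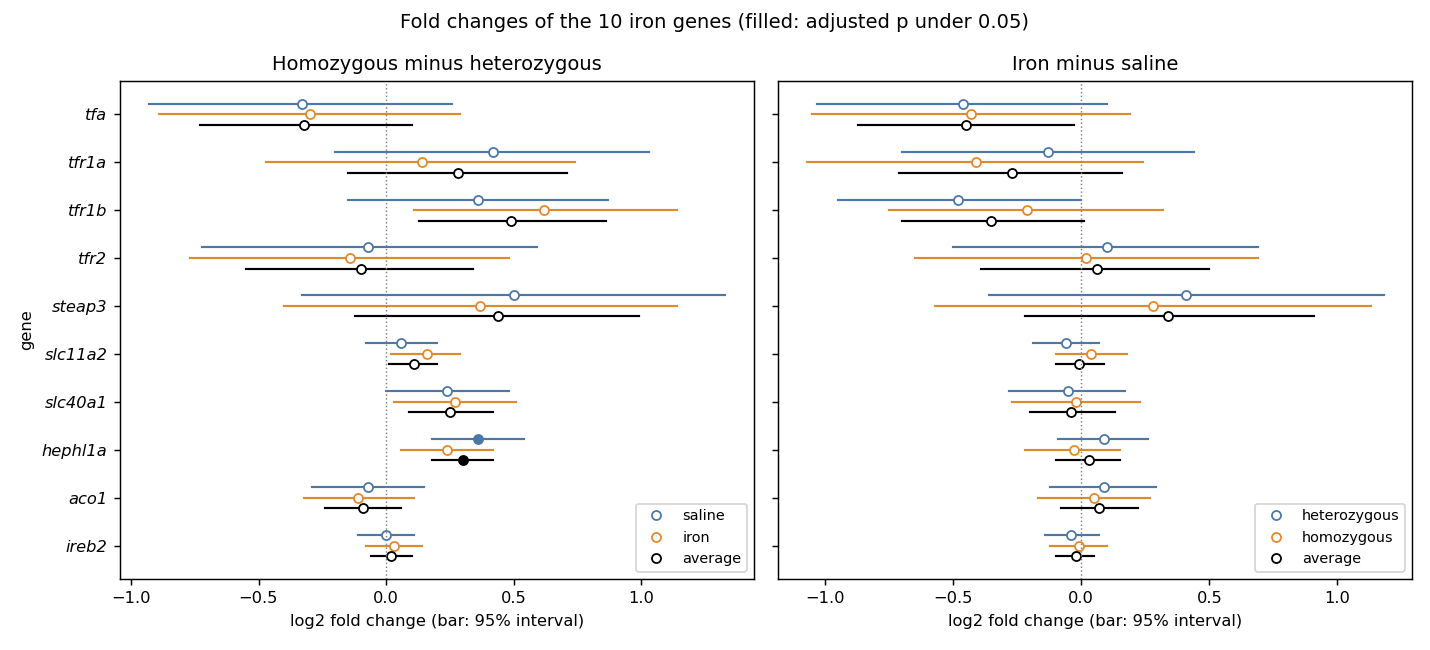
Log2 fold changes of the 10 iron genes with 95% intervals, homozygous minus heterozygous on the left and iron minus saline on the right, within each stratum and averaged. Filled circles passed the adjusted threshold, hephl1a after saline (0.36) and on average (0.30), and open circles did not.

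The comparison of iron with saline asks whether injected ferric citrate changed these transcripts in the brain after 7 days. By edgeR 0 of 10 passed in heterozygous fish, in homozygous fish and on average, and 0% of all genes tested were called in each. DESeq2 and limma voom also called 0 of 10. At an unadjusted p under 0.05 there were 0 of 10 in heterozygous fish, 0 of 10 in homozygous fish and 1 of 10 on average, beside 3.37%, 1.46% and 1.91% of all genes. The median log2 fold change of the 10 genes was -0.046 in heterozygous and -0.014 in homozygous fish, and over all genes 0.003 and 0.001.

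The gene with the smallest unadjusted p for iron on average and in homozygous fish was tfa, and in heterozygous fish it was tfr1b. Levels of tfa lay at 1.97 to 13.9 CPM in heterozygous saline fish and at 3.16 to 6.96 CPM in heterozygous iron fish. They lay at 1.88 to 9.30 CPM in homozygous saline fish and at 2.62 to 7.51 CPM in homozygous iron fish. The saline groups were the wider ones at both ends, and 1 of 10 homozygous iron fish lay above the median of the homozygous saline fish. The log2 difference of tfa, iron minus saline, was -0.46 (SE 0.28) in heterozygous fish, -0.43 (SE 0.31) in homozygous fish and -0.45 (SE 0.21, 95% interval -0.87 to -0.03) on average, with an unadjusted p of 0.038 and an edgeR adjusted p of 1.

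For tfr1b the difference was -0.48 (SE 0.23, unadjusted p = 0.050) in heterozygous fish, -0.21 (SE 0.26) in homozygous fish and -0.35 (SE 0.17, 95% interval -0.70 to 0.01, edgeR adjusted p = 1) on average. In heterozygous fish 3 of 10 iron fish lay above the saline median of 123 CPM, and in homozygous fish 3 of 10 lay above the saline median of 166 CPM. For tfr1a the averaged difference was -0.27 (SE 0.21, 95% interval -0.71 to 0.16). Intervals were narrow for 5 genes. They ran from -0.10 to 0.05 for ireb2, from -0.10 to 0.09 for slc11a2, from -0.10 to 0.15 for hephl1a, from -0.20 to 0.13 for slc40a1 and from -0.08 to 0.22 for aco1. The interaction, which asks whether the iron difference depends on genotype, was called for 0 of 10 genes and 0% of all genes. At an unadjusted p under 0.05 there were 0 of 10, beside 2.53% of all genes, and DESeq2 and limma voom called 0 of 10. Its estimates ran from -0.28 (SE 0.43) for tfr1a to 0.26 (SE 0.36) for tfr1b.

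Between the sexes, 0 of 10 genes passed by edgeR, DESeq2 or limma voom, while 2.44% of all genes did by edgeR. At an unadjusted p under 0.05 there were 2 of 10, tfr2 with a female minus male log2 difference of 0.49 (SE 0.22) and hephl1a with 0.14 (SE 0.06), beside 18% of all genes. Their adjusted p were 0.22 and 0.21. In 19 females tfr1a lay at 2.16 to 14.0 CPM with a median of 4.08, and in 21 males at 1.74 to 12.2 CPM with a median of 6.01. Of the females 2 of 19 lay above the male median, heterozygous saline 7 and homozygous saline 1. The difference was -0.40 (SE 0.21, edgeR adjusted p = 0.31). It passed in only 1 of the 40 fits with a library left out, without heterozygous saline 7, at -0.67 (SE 0.18, adjusted p = 0.036). With the summed red cell markers as a term, chosen after seeing the data, it was -0.63 (SE 0.16, adjusted p = 0.031). Heterozygous saline 7 also had the highest red cell marker sum of all libraries, 646 CPM. A term for endothelium markers was not fitted.

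The titles of the samples give a number for each fish, and no label says what it stands for. Levels of many genes differ between the 20 fish up to 40 and the 20 above, with 21.4% of all genes called. Among the iron genes 1 of 10 passed, and at an unadjusted p under 0.05 there were 2 of 10, aco1 and tfa, beside 34.3% of all genes. In fish up to 40 aco1 lay at 21.2 to 32.4 CPM with a median of 26.8, and in fish above 40 at 18.1 to 28.1 CPM with a median of 22.4. The ranges overlapped, and 3 of 20 fish above 40 lay above the median of the fish up to 40. The log2 difference, above 40 minus up to 40, was -0.24 (SE 0.06, edgeR adjusted p = 0.0028), and it kept its call with each of the 40 libraries left out in turn, at -0.28 to -0.22.

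Some marker levels also differed with fish number, in a comparison that called 21.4% of all genes. Of 7 tested astroglia markers 4 were lower above 40, of 4 choroid plexus and meninges markers 2 were, and of 8 microglia and macrophage markers 2 were. Of 12 neuron markers 4 were higher. Of 8 oligodendrocyte markers 1 was lower, and of 7 endothelium markers 1 was. Of 5 red cell markers and of 4 tested markers of photoreceptors, pineal and lens 0 were called. Astroglia markers summed to 4230 to 8290 CPM up to 40 and to 2310 to 7500 CPM above, and choroid plexus and meninges markers to 63.6 to 110 and to 49.0 to 84.4 CPM. Microglia and macrophage markers summed to 719 to 1810 and to 344 to 1210 CPM, and neuron markers to 7260 to 9590 and to 8230 to 11800 CPM. Above 40, heterozygous saline 10 alone gave the lowest astroglia, choroid plexus and microglia sums and the highest neuron sum. Median sums up to 40 and above were 7050 and 6430 CPM for astroglia and 88.1 and 67.7 CPM for choroid plexus and meninges. They were 1040 and 848 CPM for microglia and macrophages and 8300 and 9220 CPM for neurons. With the astroglia sum and the choroid plexus and meninges sum as terms, chosen after seeing the data, the difference of aco1 was -0.06 (SE 0.06, adjusted p = 0.73). Both sums themselves differed with fish number, so a fit with them cannot separate fish number from cell makeup. In the choroid plexus and meninges list, ttr had a mean of 0.0352 CPM and did not pass the filter. Its largest member was a gene matched to igfbp2a, with a mean of 47.5 CPM. As a description over 40 libraries, levels were also correlated after removal of group, sex, home tank and the fish-number term. The shift with fish number is therefore not part of these values. The residual level of aco1 had an r of 0.63 with the astroglia sum and 0.66 with the choroid plexus and meninges sum. It was 0.51 with the microglia and macrophage sum and -0.61 with the neuron sum.

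The transferrin gene tfa lay in the same direction, at 1.88 to 13.9 CPM with a median of 5.34 up to 40 and at 1.97 to 8.90 CPM with a median of 4.14 above 40. Of the fish above 40, 5 of 20 lay above the median of the others. The log2 difference was -0.47 (SE 0.18, edgeR adjusted p = 0.058), which DESeq2 placed at an adjusted p of 0.042. For ireb2 the difference was 0.04 (SE 0.04, adjusted p = 0.48).

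**Figure D3:**
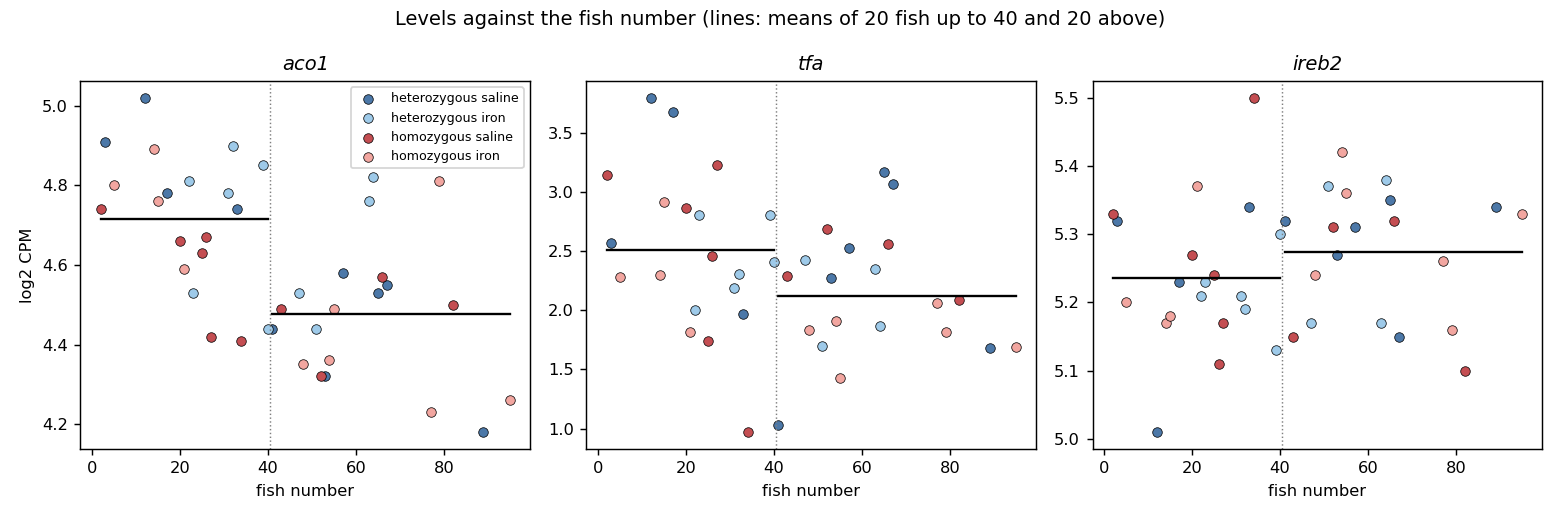
Log2 CPM of aco1, tfa and ireb2 in 40 brains against the fish number, with points coloured by group and lines at the means of the 20 fish up to 40 and the 20 above. The mean of aco1 was 4.72 up to 40 and 4.48 above, that of tfa 2.51 and 2.12, and that of ireb2 5.24 and 5.27.

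Which iron genes vary together from brain to brain was asked over all 45 pairs, after group, sex and home tank had been removed from log2 CPM by a linear model. In permutation tests with 100000 resamples, two-sided and adjusted by the Benjamini-Hochberg method over the 45 pairs, 9 pairs passed for Pearson's r, 7 positive and 2 negative, and 4 of them also passed for Spearman's rho. The permutations treated the residuals of the 40 libraries as freely exchangeable, although 9 coefficients had been removed from them. These p are therefore somewhat too small, which matters most for pairs near the threshold. All values of a library share its depth and its cell makeup.

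The closest pair was that of the transferrin receptor genes tfr1a and tfr1b, with r = 0.72 (permutation p = 1e-05, the smallest these permutations can give, adjusted p = 0.00045) and rho = 0.59 (adjusted p = 0.0040) over 40 brains. In heterozygous saline 7 both were at their highest of the whole series, 14.0 and 356 CPM, and in heterozygous saline 3 both were at their lowest, 1.74 and 69.2 CPM. Without the 2 libraries farthest from the median r was 0.52, and without heterozygous saline 7 alone it was 0.63. Within the 20 fish up to 40 it was 0.74 and within the 20 above 0.71. With the fish-number term removed as well, the residual levels of tfr1a and tfr1b had an r of 0.64 and 0.53 with the summed red cell markers. With the summed endothelium markers r was 0.58 for tfr1a and 0.33 for tfr1b. These values are given as a description.

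The exporter gene slc40a1 paired with both receptor genes. For tfr1b with slc40a1 r was 0.52 (permutation adjusted p = 0.0046, rho = 0.46, adjusted p = 0.037) and for tfr1a with slc40a1 it was 0.51 (adjusted p = 0.0057, rho = 0.39, adjusted p = 0.077). Without the 2 farthest libraries these were 0.30 and 0.26. Within fish up to 40 the pair tfr1b and slc40a1 had an r of 0.19 and above 40 the r was 0.82, and the difference between these values was not tested.

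The other pairs that passed joined regulators, carriers and low-count genes. Levels of tfa were lower where ireb2 was higher (r = -0.55, permutation adjusted p = 0.0022, rho = -0.49, adjusted p = 0.037), with -0.57 up to 40 and -0.48 above. The pair tfr2 and tfa had r = 0.57 (adjusted p = 0.0016) but a rho of 0.43 (adjusted p = 0.055), and tfr2 rests on few counts. The pair hephl1a and steap3 had r = 0.60 (adjusted p = 0.0016, rho = 0.47, adjusted p = 0.037), which was 0.37 without heterozygous iron 5 and homozygous iron 9, the libraries where steap3 was highest. The last 3 pairs were aco1 with steap3 (0.42), with tfa (0.42) and with ireb2 (-0.42), each with an adjusted permutation p of 0.039 for r and 0.077 for rho. These 3 lie near the threshold, and a p that allows for the removed coefficients was not computed. Of these, aco1 with tfa fell to 0.27 with the fish-number term removed as well.

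**Figure D4:**
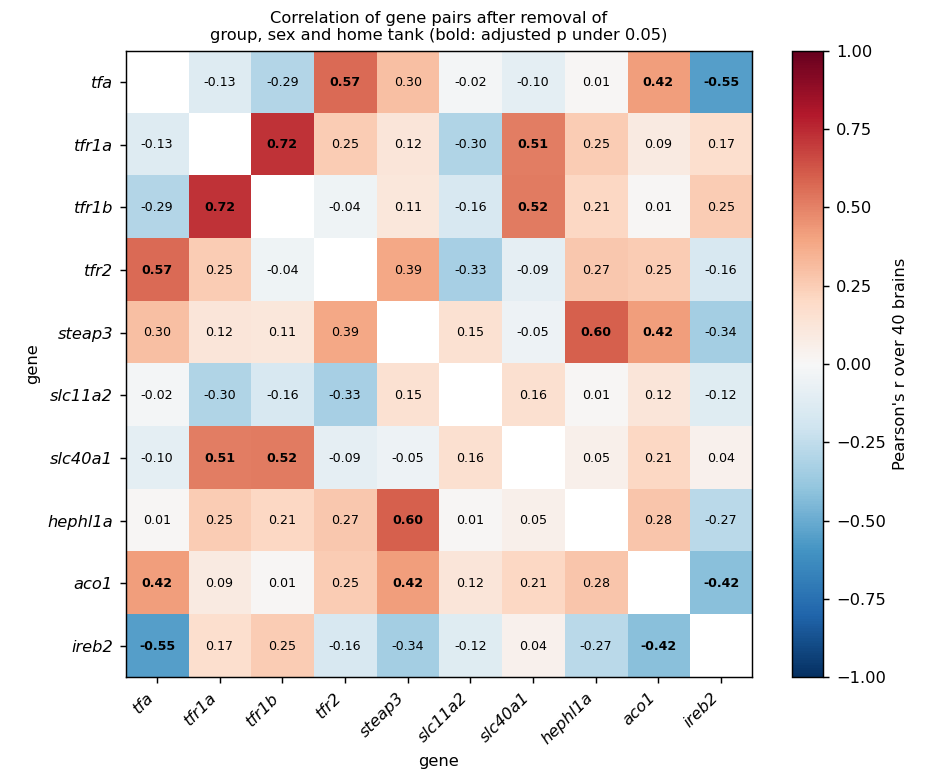
Pearson's r for each of the 45 pairs of iron genes over 40 brains, on log2 CPM after removal of group, sex and home tank, with the colour running from -1 to 1. Bold values passed the adjusted permutation test, with tfr1a and tfr1b highest at 0.72 and tfa and ireb2 lowest at -0.55.

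Among all 19668 genes tested, the most similar patterns to each iron gene were sought over the 40 libraries with group, sex, home tank and the fish-number term removed. For hephl1a these were SERPINB8 (ENSDARG00000095830), a protease inhibitor gene, with r = 0.863 and TCIRG1 (ENSDARG00000105142), a gene of the vacuolar proton pump, with r = 0.86. Their own averaged genotype differences were 0.60 (SE 0.19, edgeR adjusted p = 0.066) and 0.31 (SE 0.10, adjusted p = 0.068). For aco1 they were ITGAV (ENSDARG00000006314), an integrin gene, with r = 0.812 and AMPD2 (ENSDARG00000104491), a gene of purine metabolism, with r = 0.784. Symbols in capitals come from the gene table, which often lacks the zebrafish paralog letter.

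The highest value for any of the 10 genes was that of tfr1b with alas1 (ENSDARG00000021059), which encodes the enzyme that starts heme synthesis outside red cells. It was chosen for naming after its value was seen. Over 40 brains r was 0.92 and rho 0.90, within each set of 20 fish by number r was 0.92, without heterozygous saline 7 it was 0.89 and without the 2 farthest libraries 0.86. For comparison, the gene second in likeness to tfr1b was its paralog tfr1a at 0.726. The averaged genotype difference of alas1 was 0.41 (SE 0.11, edgeR adjusted p = 0.030), beside 0.49 for tfr1b, and its difference between iron and saline was -0.17 (SE 0.11, adjusted p = 1), beside -0.35. In the gene table alas1 lies on chromosome 11, not on that of tfr1b. For the other 7 genes the 2 highest values of r ran from 0.642 to 0.819.

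**Figure D5:**
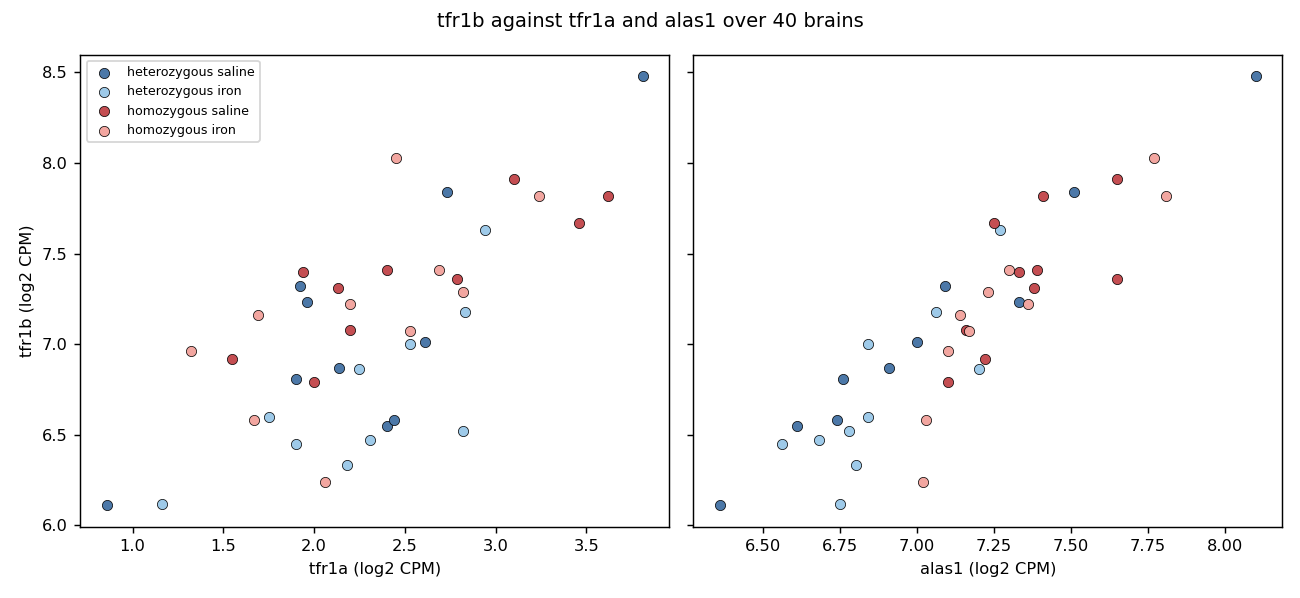
Log2 CPM of tfr1b against tfr1a (left) and against alas1 (right) in 40 brains, coloured by group. Heterozygous saline 7 stands at the top right in both panels, at 8.48 for tfr1b, 3.81 for tfr1a and 8.10 for alas1, and points lie closer to a line for alas1.

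Other genes of iron handling were counted from 5 lists, 53 genes of which 51 were tested, and these lists were chosen with earlier results of these data known. In every genotype and iron comparison and in the interaction 0 of 51 passed by edgeR, and at an unadjusted p under 0.05 there were between 0 and 7 of 51. The 7 were in the averaged genotype comparison, where 19.7% of all genes were under it. The smallest unadjusted p for the averaged genotype difference was that of fbxl5, which marks iron regulatory proteins for breakdown in mammals, at -0.07 (SE 0.03, adjusted p = 0.17). Their median log2 fold change between genotypes was 0.02 on average, beside 0.181 for the 10 iron genes described above and -0.002 over all genes.

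With fish number, 10 of the 51 were higher above 40 and 9 were lower, beside 21.4% of all genes called in either direction. Among 7 genes of entry and reduction 3 were lower, the reductase genes steap4 at -0.74 (SE 0.17, edgeR adjusted p = 0.0029) and cybrd1 at -0.33 (SE 0.09), and the metal importer gene slc39a8 at -0.43 (SE 0.14). Ceruloplasmin, cp, the ferroxidase that astroglia carry in mammals, had the largest difference of the lists at -0.76 (SE 0.12, adjusted p = 5.6e-05). The mitochondrial iron importer gene slc25a28 was lower by -0.30 (SE 0.04, adjusted p = 2.1e-07). Of the other genes on the list of mitochondrial iron and iron-sulfur clusters, ciao2b was lower at -0.15 (SE 0.04). The frataxin gene fxn and iba57 were higher at 0.12 (SE 0.04) and 0.13 (SE 0.05). Among 10 genes of iron regulatory protein turnover and iron chaperones 5 were higher, namely skp1, cul1a, pcbp2, pcbp3 and ncoa4, by 0.08 for pcbp2 to 0.32 for pcbp3, and nubp2 was lower at -0.23 (SE 0.08). Among 7 tested genes of hepcidin control, both Ensembl genes matched to neo1a were higher, and bmp6 at -0.51 (SE 0.14) and id1 at -0.30 (SE 0.10) were lower. Of the Ensembl genes matched to smad6a, without regard to the paralog letter, not all were called, and the called gene was higher.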

How the data were processed

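The authors deposited a table of unnormalized counts, 32057 Ensembl genes by 40 libraries, all of which were used. The submitters' processing notes name GRCz11 as the build and list STAR, featureCounts, fastp and UMI-tools. Versions, settings and strand handling were not given in the sources used here, so the gene of origin is uncertain where genes overlap or run antisense, and whether reads are shared between paralogs such as tfr1a and tfr1b was not tested. Per the labels' protocols, the brains came from heads stored in RNAlater, and polyA libraries were amplified. Library totals were 11800000 to 38500000 counts.

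Tests ran in R 4.3.3 on the counts as deposited, with edgeR 4.0.16: filterByExpr on the 4 groups, TMM factors, a robust quasi-likelihood fit of all 40 libraries by group, sex and 5 home tanks (9 coefficients, 31 residual degrees of freedom), and Benjamini-Hochberg adjustment over 19668 genes with a threshold of 0.05. A separate fit added a term for fish number above 40. SE is the log2 fold change divided by the square root of the F statistic. Log2 CPM used a prior count of 2, computed here from the deposited counts. Replicate numbers only name libraries; over 780 pairs of libraries 0 were identical. On simulated counts for 19668 genes, in the averaged genotype comparison, the fit recovered 50% of 50 genes changed 1.25-fold, 78% at 1.5-fold and 98% at 2-fold.

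Correlations of pairs used permutation tests with 100000 resamples. The genes described, the gene and marker lists and the alternatives were chosen with earlier results of these data known. All 10 iron genes are named; genes of like pattern are named for those that passed in a comparison, and also for tfr1b, chosen after seeing the values; other iron genes are named where they passed, except 1 that is not reported here, or from among the 3 smallest p of a list (fbxl5). Symbols came from a table that matched 28988 of the 32057 genes (90.4%), and chromosomes from RefSeq's table for GRCz12tu, a build other than that of the counts. Alternatives were other size factors and filters, DESeq2 1.42.0, limma 3.58.1 voom, 1 surrogate variable from sva 3.50.0, other covariates and fewer libraries. Figures were drawn with matplotlib 3.10.9. The planned search of promoter motifs and the comparison of protein sequences were not run, since no sequences were used here.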

Additional observations from a re-analysis of the deposited data

Results flagged for a closer look

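In each group of 10 fish, the highest and the lowest value of each gene were compared with the spread of the others by Dixon's ratio of the gap to the range, on the log2 scale, with a critical value of 0.466. Of 40 sets, 10 genes in 4 groups, 3 were flagged, where chance flags about 1 in 20. In homozygous iron 9 hephl1a stood at 98.4 CPM, while the other 9 fish lay at 64.1 to 74.1 CPM. In the same library steap3 stood at 4.57 CPM from 159 counts, while the others lay at 0.335 to 0.857 CPM. In heterozygous iron 5 steap3 stood at 2.34 CPM from 42 counts, while the others lay at 0.423 to 0.823 CPM. That library also had the highest hephl1a of its group, 93.6 CPM.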

How the results depend on the processing

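Over the 10 genes and 9 comparisons, 1391 values under other settings were set beside the 90 main values. Of these 1372 stayed on the same side of the threshold, 10 lost a call, 9 gained one and 0 called values turned their sign, while 124 values that had not passed changed sign. Most of the 90 main values had not passed, so this total says little about those that had. The hephl1a call was kept in 11 of 17 settings after saline and in 13 of 16 on average. The aco1 call for fish number was kept in 11 of 12. The count of genes called after saline, 1, was 0 with 1 surrogate variable (hephl1a 0.21, adjusted p = 0.28), with males, females, fish up to 40 or fish above 40 alone, and with only the 20 libraries compared. In the fit of those 20 libraries hephl1a was 0.33 (SE 0.07, adjusted p = 0.18), and its SE in the main fit was 0.09. Within fish up to 40 and above 40 the log2 fold change of hephl1a after saline was 0.37 and 0.28, and on average 0.28 and 0.29. After iron the count of 0 became 1 without heterozygous saline 5 and heterozygous iron 5. Leaving out these libraries, chosen by their side of the genotype difference, can by itself add genotype calls. The averaged count of 1 was 2 with DESeq2 (slc40a1 added), 3 without sex and tank terms (slc40a1 and slc11a2 added), 3 without heterozygous saline 5 and heterozygous iron 5, 2 with males alone, and 0 with females, fish up to 40 or fish above 40 alone. The count of 1 for fish number was 2 with DESeq2 (tfa added), 2 with 1 surrogate variable (hephl1a added at 0.12, adjusted p = 0.049) and 0 with males alone (aco1 -0.26, adjusted p = 0.17). With each of the 40 libraries left out in turn, chosen after seeing the data, the counts were 0 to 1 after saline, 0 to 1 after iron, 1 to 3 on average, 0 to 1 between the sexes and 1 to 3 for fish number. The call after iron came without heterozygous iron 5 (hephl1a 0.34, adjusted p = 0.024). The count of 3 for fish number came without homozygous iron 9, where steap3 was -0.57 (adjusted p = 0.046), and tfa passed in 8 of the 40 fits. The causes of these changes were not tested. Over all genes, the averaged genotype comparison called 847 in the full fit, from 0 with females alone to 2499 without sex and tank terms. The averaged counts of 0 and 3 iron genes under those 2 settings stand beside these numbers. For the other settings and comparisons the number over all genes is not given here. Their counts of iron genes can therefore not be read apart from it. No paired analysis was possible because each library is a different fish and replicate numbers only name libraries. Counts of tfr2 and steap3 were as low as 2 and 3 in a library.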
